A study of Homo sapiens with 2 samples.

Results

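To describe where IGF2BP3 LACE-seq peaks lie on the body of spliced transcripts, peaks over short internal coding exons were taken from both peak lists. A peak was a member when it touched exactly 1 exon of the canonical transcripts of protein-coding genes (GENCODE 44, hg38) and this exon was internal, wholly coding and no longer than 300 nt. The rule held for 5155 of 21142 peaks in replicate 1 (24.4%) and for 4540 of 20799 peaks in replicate 2 (21.8%), each on an exon of its own. The members lay in 2668 genes in replicate 1 and in 2357 genes in replicate 2. Of all 154389 exons that meet the rule's exon criteria, called eligible exons here, 3.34% had a member peak in replicate 1 and 2.94% in replicate 2.

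The 2 samples are replicates of 1 group: OE-19 cells with no treatment named in the labels, grown in RPMI1640 with fetal bovine serum. OE-19 is an established human line derived from a tumor of the esophagogastric junction (an adenocarcinoma). Cells were exposed to UV light, which links protein to the RNA it touches, and IGF2BP3 was immunoprecipitated with its RNA. The study calls them biological replicates, and the labels do not say how the cultures were separated. No control library was analysed here, and no other group was analysed.

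IGF2BP3 is a cytoplasmic RNA-binding protein of the IMP family that carries RRM and KH domains. It binds mRNAs in tumor and fetal cells, is known to favor CA-rich elements and GGAC-containing sites, and has been described as a reader of m6A. LACE-seq reads out binding from reverse transcription that stops at the crosslinked protein, followed by linear amplification of the cDNA. An internal coding exon is joined to its neighbours by splicing before the mRNA leaves the nucleus, so a peak that runs from an exon into the flanking intron covers sequence that the mature mRNA does not hold.

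The exons with the strongest peaks in both replicates serve here as examples of member exons. The sequences of 4 of them, in order of the lower of their within-list ranks of fold enrichment, were read from hg38 on the gene strand, with every CACA in capitals because this tetramer lay close to the peak edges.
APP exon 6 (chr21:26021840-26022042, minus strand): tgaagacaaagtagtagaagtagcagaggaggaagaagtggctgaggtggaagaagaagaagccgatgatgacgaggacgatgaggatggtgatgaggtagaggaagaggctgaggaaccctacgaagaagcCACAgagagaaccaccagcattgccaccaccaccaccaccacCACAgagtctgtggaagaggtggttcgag
FAM120A exon 11 (chr9:93543222-93543471, plus strand): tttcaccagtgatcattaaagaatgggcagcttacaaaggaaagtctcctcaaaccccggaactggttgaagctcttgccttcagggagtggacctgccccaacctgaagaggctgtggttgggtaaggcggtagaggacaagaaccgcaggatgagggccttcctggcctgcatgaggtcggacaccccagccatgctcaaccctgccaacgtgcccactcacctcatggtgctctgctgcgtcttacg
ANKS6 exon 12 (chr9:98756420-98756603, minus strand): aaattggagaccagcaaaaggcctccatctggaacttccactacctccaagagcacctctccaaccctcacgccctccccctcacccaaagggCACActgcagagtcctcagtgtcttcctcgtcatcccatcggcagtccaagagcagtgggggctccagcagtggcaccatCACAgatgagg
CLINT1 exon 7 (chr5:157805866-157806112, minus strand): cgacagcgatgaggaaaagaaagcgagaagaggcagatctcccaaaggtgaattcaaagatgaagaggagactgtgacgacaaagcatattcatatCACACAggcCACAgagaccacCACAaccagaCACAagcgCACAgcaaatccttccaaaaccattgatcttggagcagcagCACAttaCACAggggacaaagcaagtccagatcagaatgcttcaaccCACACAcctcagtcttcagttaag
The APP exon held 2 CACA matches, FAM120A 0, ANKS6 2 and CLINT1 10, counted with overlaps. The downstream end of the peak lay at exon base 179 in both replicates for APP. It lay at bases 245 and 244 for FAM120A, at 145 and 159 for ANKS6, and at 230 and 233 for CLINT1. Replicates thus placed the end within 3 nt of each other both in CLINT1, with the most CACA matches of these 4, and in FAM120A, with none.

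Member peaks were narrow and of moderate height. Their median width was 305 bp in both replicates, against 369 and 372 bp for all other peaks on annotated chromosomes, and the narrowest peak was 293 bp in replicate 1 and 294 bp in replicate 2. Width comes from the same coordinates that the rule used. The rule leaves out the 1804 and 1952 peaks that touch 2 or more canonical exons, and its part in the narrower width was not tested. The median fold enrichment over the local background, as the authors' peak caller gave it, was 7.43 in replicate 1 and 7.39 in replicate 2. The median pileup, the number of reads stacked at the summit as recovered from fold and p-value, was 19 reads in both replicates, compared with 24 and 23 for the other peaks. Library totals are not in the lists, so this pileup was the measure of depth. At the length limit of the rule, the 110 and 100 members on exons within 20 nt below it had a median fold enrichment of 7.49 and 8.35, and the 84 and 79 peaks on internal coding exons within 20 nt above it had 8.48 and 7.76.

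Genes on the minus strand of the genome held 71.1% of the members in replicate 1 and 70.6% in replicate 2, although 49.6% of the eligible exons are on that strand. The same skew was seen in the other peaks that touch 1 canonical exon, with 67.7% and 65.0% on minus-strand genes. Its part in the results was not tested, and the main values are also given by strand. The 31 bases around the summit occurred once in hg38 for 96.8% and 96.5% of the members. Of the members, 157 in replicate 1 (3.05%) and 157 in replicate 2 (3.46%) also touched an annotated exon of another gene.

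Member peaks did not sit centrally on their exons. Read on the gene strand, the downstream edge of the peak fell inside the exon for 96.8% of members in replicate 1 (95% Wilson interval 96.3 to 97.3) and for 96.2% in replicate 2. The upstream edge lay before the exon for 99.4% in both replicates. The typical member thus started in the intron before the exon and ended within the exon, and only 2.72% and 3.41% covered the whole exon. The overhang itself followed from peak width, since no member peak was narrower than 293 bp in replicate 1 or 294 bp in replicate 2. Member exons had a median length of 162 and 167 nt, with 289 and 290 nt at the 99th percentile. A peak this wide that ends inside such an exon has to start before it. Whether intron or unspliced RNA was bound was not tested. The median downstream edge lay 108 nt from the exon's start in replicate 1 and 112 nt in replicate 2, which was 46 nt before the exon's end in both. The median upstream edge lay 212 and 209 nt before the exon. The summit was upstream of the exon for 74.6% (Wilson interval 73.4 to 75.8) and 74.5% of members, with a median 38 and 37 nt before the exon's start. The rule asks only that a peak touch the exon and says nothing of the side from which it does so.

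**Figure D1:**
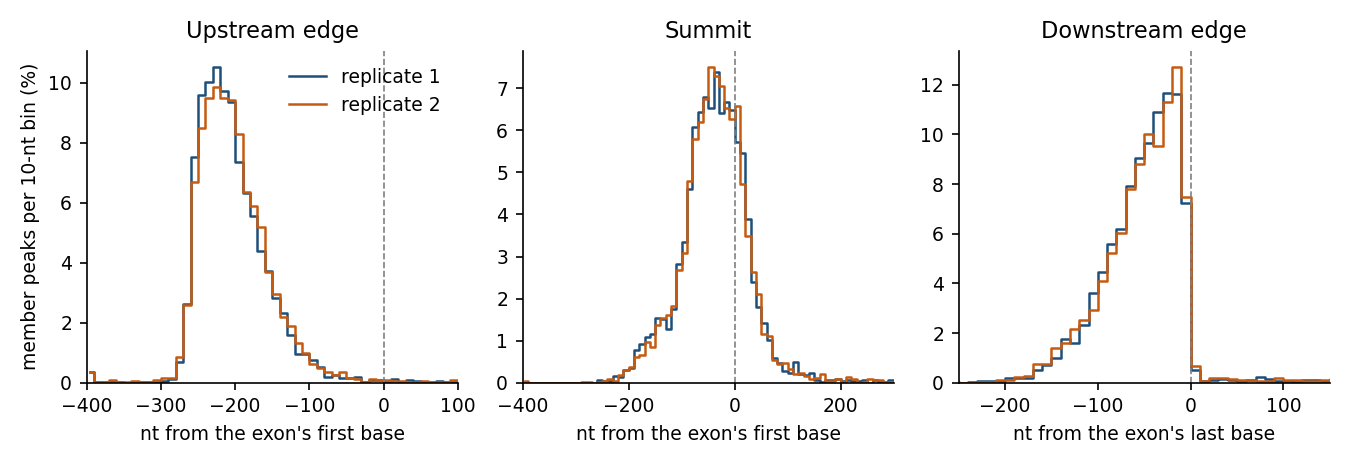
Positions of the member peaks on the gene strand, as the percentage of members per bin of 10 nt, for replicate 1 (blue) and replicate 2 (orange). The left and middle panels give the upstream edge and the summit relative to the exon's first base, and the right panel gives the downstream edge relative to the exon's last base, where 96.8% and 96.2% of edges lie to the left of the dashed line.

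Few peaks ran past the end of the exon. The downstream edge lay within the last 10 nt of the exon for 325 members in replicate 1 and 295 in replicate 2, but within the following 10 nt for 18 and 23 members. Few edges lay close to the start of the exon either, with 0.737% and 0.969% of members ending in its first 30 nt. In longer exons the downstream edge lay further from the exon's start, a distance that exon length caps for an edge inside the exon. The edge's median distance from the start went from 54 nt in exons of up to 80 nt to 168 nt in exons of 221 to 300 nt in replicate 1. The corresponding medians of replicate 2 were 55 and 172 nt. Its median distance to the exon's end grew as well, from 13 to 78 nt in replicate 1 and from 12 to 74 nt in replicate 2. Over the same classes the median summit moved from 82 to 7 nt before the exon in replicate 1, with 94 and 4 nt for replicate 2. Median peak width changed less than the downstream edge did, from 297 to 320 bp in replicate 1 and from 298 to 328 bp in replicate 2. The summit's shift was not separated from that of the downstream edge. On plus-strand genes the edge was inside the exon for 96.5% of members in replicate 1, and on minus-strand genes for 96.97%. Longer coding exons and the remaining peaks on 1 canonical exon shared this feature. Their downstream edge was inside the exon for 99.4% and 98.5% in replicate 1, and for 99.3% and 96.7% in replicate 2. On the long coding exons, with a median length of 654 and 621 nt over their peaks, the upstream edge lay before the exon for 66.2% and 65.7% of peaks.

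The base that follows the downstream edge was not a random exon base. In members whose edge was inside the exon, this base was A in 46.0% of 4992 peaks in replicate 1 and in 40.1% of 4366 peaks in replicate 2. From the fifth to the tenth base beyond the edge, A took 27.7% to 28.2% in replicate 1 and 25.7% to 27.1% in replicate 2. C and G fell to 14.9% and 13.5% at that base in replicate 1, and to 16.4% and 17.8% in replicate 2. T stood at 25.6% and 25.7%. The last base inside the peak was A in 35.3% and 29.1% of members. The pattern was not particular to short exons, since A followed the edge in 47.1% and 38.5% of peaks on long internal coding exons. The cause of this base preference was not tested.

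**Figure D2:**
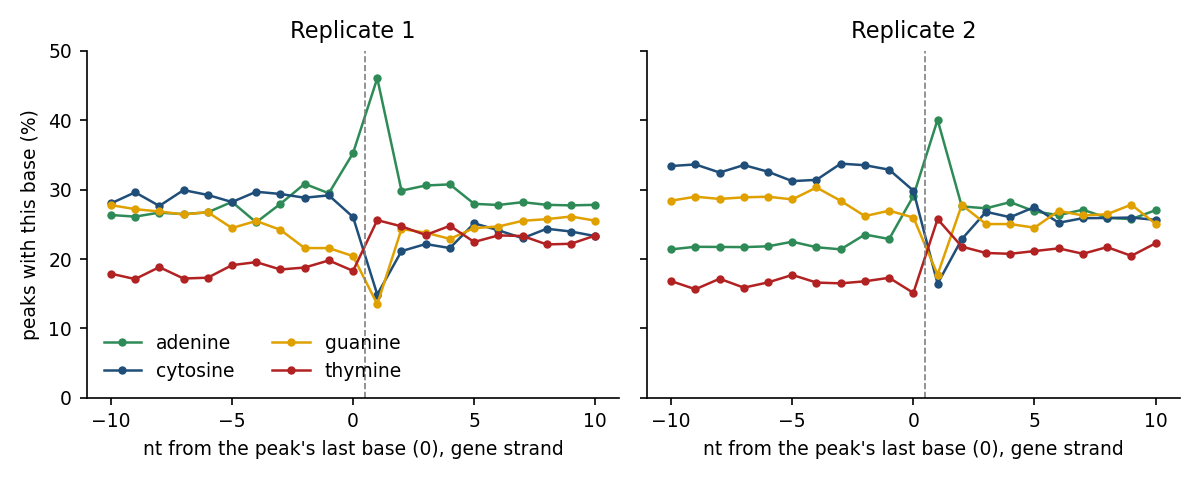
Base composition at each position from 10 nt inside to 10 nt beyond the downstream edge of member peaks, on the gene strand, with replicate 1 on the left and replicate 2 on the right. Position 0 is the last base of the peak, and the base beyond the dashed line is adenine in 46.0% and 40.1% of peaks.

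In 102 exons the downstream edge was the same base in both replicates, and the following base was A in 51 of these, T in 30, C in 11 and G in 10. A set of 7 among the strongest with a single-copy summit is printed from 20 nt before the peak's last base to 10 nt after it, in hg38, with the base just outside the peak in capitals.
APP exon 6 (chr21:26021854-26021884, minus strand): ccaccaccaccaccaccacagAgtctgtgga
ANKRD17 exon 30 (chr4:73085289-73085319, minus strand): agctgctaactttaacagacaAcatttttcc
SF3A3 exon 13 (chr1:37969620-37969650, minus strand): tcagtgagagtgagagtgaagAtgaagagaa
BACE2 exon 8 (chr21:41257273-41257303, plus strand): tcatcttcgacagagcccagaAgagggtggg
CCDC6 exon 5 (chr10:59812648-59812678, minus strand): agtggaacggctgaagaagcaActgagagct
VDAC1 exon 6 (chr5:133980768-133980798, minus strand): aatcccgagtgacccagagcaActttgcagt
NFIB exon 7 (chr9:14125643-14125673, minus strand): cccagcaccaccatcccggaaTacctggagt
In 6 of these 7 windows the base just outside the peak is A. Of the genes, ANKRD17 encodes an ankyrin-repeat protein, SF3A3 a subunit of the splicing factor that recognises the branch site, and BACE2 an aspartyl protease. VDAC1 encodes the main channel of the outer mitochondrial membrane and NFIB a transcription factor of the nuclear factor I family.

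CACA gathered in the exon sequence just before the downstream edge. Among members with the edge in the exon, matches whose last base lay 0 to 19 nt before the edge numbered 1160, or 11.6 per 1000 positions, in replicate 1. At 60 to 99 nt before the edge the level was 5.34 per 1000, a ratio of 2.18. In replicate 2 the levels were 8.25 and 5.16 per 1000, a ratio of 1.597. The ratio was 1.99 and 1.62 on plus-strand genes, and 2.26 and 1.59 on minus-strand genes. Only members with enough exon inside the peak reach 60 to 99 nt, so the 2 levels do not come from the same set of exons. The part of this in these ratios and in those of other motifs was not tested. Within replicate 1 the level fell from 12.9 per 1000 in the last 10 nt of the peak to 10.3, 7.46 and 6.20 in the bins of 10 nt before it. In replicate 2 the corresponding levels were 8.78, 7.72, 7.16 and 6.12. Set against the exon sequence beyond the edge, the whole exon part inside the peak was only slightly richer in CACA. It held 6.78 against 5.50 per 1000 in replicate 1 and 6.02 against 5.71 in replicate 2, ratios of 1.23 and 1.05. These ratios were 1.22 and 0.996 on plus-strand genes, and 1.24 and 1.08 on minus-strand genes.

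The ratios of the level at 0 to 19 nt to that at 60 to 99 nt before the edge differed between tetramers of the same base content. Of the tetramers made of 2 A and 2 C, ACAC, which overlaps CACA, had ratios of 2.56 and 1.79. ACCA had 1.35 and 1.14, CAAC 1.29 and 0.849, AACC 0.857 and 0.763, and CCAA 0.780 and 0.747. These tetramers were added after the CACA values had been seen. GGAC, which lies at the core of the m6A consensus, had ratios of 1.43 and 1.25. The broader m6A consensus DRACH had ratios of 1.01 and 0.818. Runs of a single base were rare close to the edge. AAAAA was found at 0.271 per 1000 positions within 20 nt of the edge in replicate 1, against 1.66 per 1000 at 60 to 99 nt, and at 0.0688 against 1.17 in replicate 2. TTTTT was found 8 times in the last 20 nt in replicate 1 and 1 time in replicate 2. All of these are counts on the gene strand with no test, and matches are not binding sites.

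Between replicates, member peaks were found again less often than other peaks. In replicate 1, 2519 of 5155 members (48.9%) shared 1 bp or more with a peak in the list of replicate 2, compared with 63.7% of 15941 other peaks and 60.1% of all peaks. The difference was -14.9 percentage points by a two-sided Fisher's exact test (adjusted p = 4.12e-78). For replicate 2, 2514 of 4540 members (55.4%) overlapped a peak of replicate 1, compared with 62.9% of 16223 other peaks and 61.2% of all peaks, a difference of -7.48 percentage points (exact test, adjusted p = 2.00e-19). Peaks of a list are not independent samples, so these tests compare the 2 libraries only. They are not independent of each other either, since both count largely the same overlaps, with 2435 exons holding a member in both lists. The difference went with peak width and with the overlap rule. Among peaks of at most 400 bp it was -3.69 points in replicate 1 and 3.22 points in replicate 2, and with summits required to lie within 50 bp it was -0.627 and 4.41 points.

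Recurrence rose with the height of the peak. In replicate 1 the share of members found again was 20.9% at a pileup of up to 10 reads, 39.6% at 11 to 20, 60.8% at 21 to 40 and 80.9% above 40, below the other peaks in each class. In replicate 2 the shares were 39.97%, 50.9%, 61.2% and 73.2%, compared with 33.3%, 52.3%, 67.7% and 86.2% for the other peaks. In replicate 2 the members were thus above the others at the lowest pileup and below them at the highest. On plus-strand genes 41.7% and 45.3% of members were found again, which was -22.0 and -17.6 points from all other peaks, not split by strand. On minus-strand genes 51.8% and 59.6% were found again, which was -11.9 and -3.27 points from them. Most members without a partner still lay in a gene whose exons were touched in the other replicate, since this held for 93.8% and 94.5% of all members.

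**Figure D3:**
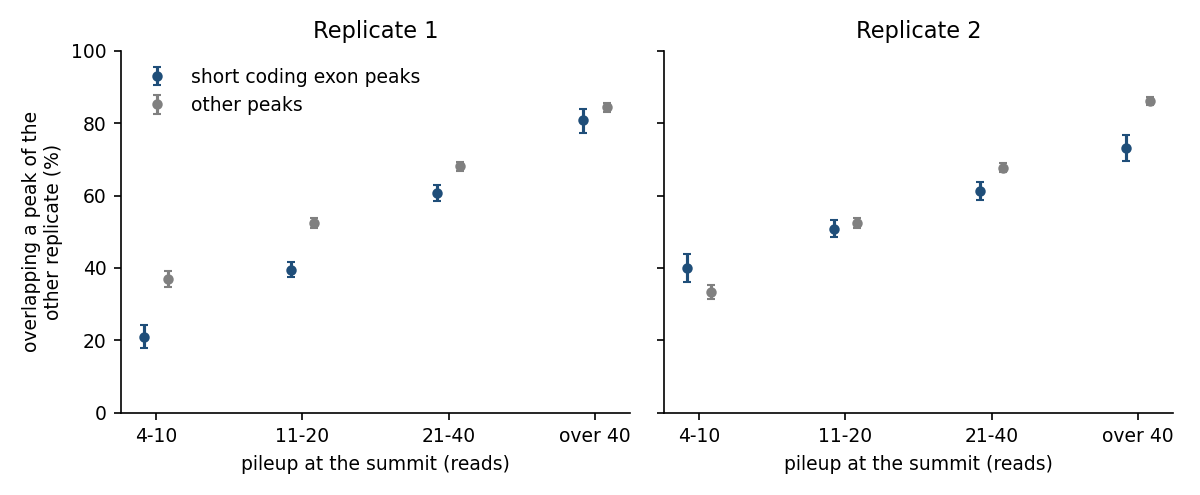
Percentage of peaks that overlap a peak of the other replicate, by pileup at the summit, for short coding exon peaks (blue) and all other peaks (grey), with 95% Wilson intervals for counting error. Members rise from 20.9% to 80.9% on the left and reach 73.2% on the right.

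Fold enrichment did not set the members apart in both replicates. The top quartile of fold enrichment held 29.3% of members against 23.6% of other peaks in replicate 1 (exact test, adjusted p = 7.92e-16), where 25% of all peaks were in it. In replicate 2, where the share of all peaks was again 25%, it held 24.9% of members and 25.1% of others (exact test, adjusted p = 0.816). The result was therefore not called. Among peaks of at most 400 bp the members were ahead by 10.7 and 5.72 points. Ranked by the q-value in place of fold, they were behind by -6.41 and -8.47 points.

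In both replicates 2435 exons of 1462 genes had a member peak, which was 1.58% of the eligible exons and 8.95% of the genes with an eligible exon. A further 4825 exons had a member peak in 1 replicate only. On the shared exons the peaks ended close together. The median distance between the downstream edges was 11 nt, with quartiles of 4 and 32 nt, and 1200 pairs (49.3%) ended within 10 nt of each other. Summits were less close, with a median distance of 25 nt. The fold enrichments of the 2435 pairs had a Spearman rho of 0.520, which is given as a description across exons and not across samples. Median fold enrichment on shared exons was 8.07 and 8.10, compared with 7.05 and 6.92 for members on exons without a partner.

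Shared exons were long for internal exons. Their median length was 174 nt, compared with 117 nt for the 16661 eligible exons without a peak in the same genes and 120 nt for all eligible exons. Exons above 160 nt made up 60.2% of the shared exons and 20.1% of the exons without a peak, whereas exons of up to 80 nt made up 2.01% and 20.4%. Over all eligible exons the share with a peak in both replicates climbed from 0.159% at up to 80 nt to 0.681%, 1.51%, 3.27% and 6.41% in the longer classes. The number of shared exons per 100000 nt of eligible exon went from 2.64 to 25.6 over the same classes. In the genes that have a shared exon, and for exons whose introns are both at least 300 nt long, the shares were 1.72%, 5.98%, 11.7%, 23.1% and 40.4%. The Wilson intervals of neighbouring classes did not overlap, either over all eligible exons or in these genes. These genes were chosen for having a shared exon, which raises every share among them. Among them the share at 161 to 220 nt was 17.7% on plus-strand and 25.5% on minus-strand genes. Above that length it was 33.0% and 43.5%.

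**Figure D4:**
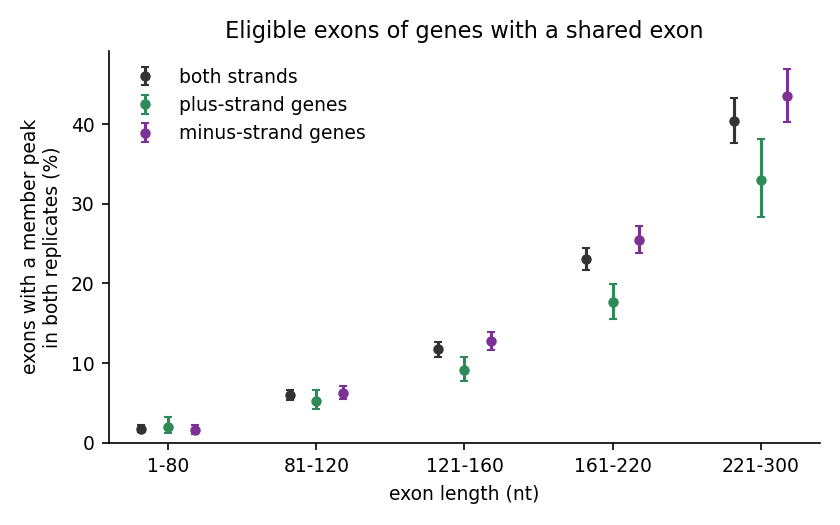
Percentage of eligible exons with a member peak in both replicates by exon length, in genes with a shared exon and with introns of at least 300 nt on both sides. Points are given for both strands together, for plus-strand and for minus-strand genes, with 95% Wilson intervals, and rise from 1.72% to 40.4% for both strands together.

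Shared exons were also richer in G and C, with a median GC content of 53.5% against 46.6% in the exons without a peak of the same genes. Within the genes that have a shared exon, for introns of at least 300 nt, the share rose with GC content in each of the 5 length classes. At 121 to 160 nt, 4.63% of exons below 45% GC were shared, 13.9% of those from 45% to 55%, and 19.2% of those above. The introns around shared exons were longer, with a median of 2930 nt upstream and 2857 nt downstream against 1696 and 1570 nt. The rule leaves out peaks that touch a neighbouring exon. Among exons whose introns are both at least 300 nt long, the medians were still 3204 and 3228 nt against 2167 and 1980 nt. Exon length was a multiple of 3, which keeps the reading frame when an exon is skipped, in 38.2% of shared exons and 40.3% of exons without a peak. Shared exons were part, with unchanged boundaries, of all the gene's protein-coding transcripts that span them in 79.9% of cases, against 84.4%.

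Of the 6 motifs counted, CACA had the largest excess in shared exons. It was found in 1491 of 2435 shared exons (61.2%, Wilson interval 59.3 to 63.1), compared with 52.2% of exons without a peak in the same genes at matched lengths, 53.0% when GC content was matched too, and 52.3% of all eligible exons at those lengths. It was higher in 5 of 5 length classes, from 40.8% against 23.4% in exons of up to 80 nt to 73.1% against 69.8% in exons of 221 to 300 nt. When these classes were split by GC content, it was lower in shared exons of up to 80 nt below 45% and above 55% GC. It was also lower at 161 to 220 nt below 45% GC (49.3% against 52.0%) and at 221 to 300 nt from 45% to 55% GC (71.7% against 73.8%). In all other classes of length and GC content it was higher. GGAC was found in 53.6% of shared exons (Wilson interval 51.6 to 55.6) and was also higher in 5 of 5 length classes before GC content was matched. Exons without a peak held it in 50.6% of cases at matched lengths and in 56.4% when GC content was matched as well, and all eligible exons in 53.7%. TGGAC was found in 24.8% against 24.97%, and DRACH in 93.8% against 95.7%, so neither was more common in shared exons than in exons without a peak. AAAAA was found in 14.1% against 23.9%, and TTTTT in 6.24% against 11.8%, but when GC content was matched too the exons without a peak held them in 16.2% and 7.98% of cases. Motifs were read on the gene strand over the whole exon.

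APP, which encodes the amyloid precursor protein, had the highest share of shared exons among the 5694 genes with at least 10 eligible exons. It has 16 eligible exons, of which 14 had a member peak in replicate 1 and 13 in replicate 2, and 13 were shared. Exon 6, whose sequence is printed with the other strong exons, was the strongest shared exon of the series, with fold enrichments of 23.8 and 26.1 and pileups of 112 and 115 reads. Exon 14 had fold enrichments of 22.2 and 16.4. Exon 7, which encodes the Kunitz protease inhibitor domain and is skipped in some isoforms, had 17.5 and 17.4. Exons 16 and 17, which encode the amyloid-beta segment, had 15.9 and 14.4, and 21.8 and 17.4. The lowest values of a shared exon were those of exon 13, at 7.38 and 7.07. Exon 4 had a peak in replicate 1 only, with a fold enrichment of 7.98.

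Exons 8 and 10 of APP had no member peak in either replicate. They are 57 and 75 nt long, and exon 8 is alternatively spliced like exon 7. Length alone did not separate them, because exon 15, another alternative exon and the shortest of all at 54 nt, had fold enrichments of 12.5 and 14.4. The downstream edges repeated to within 1 nt at exons 3, 6, 12, 13 and 17, at bases 105 and 104, 179 and 179, 102 and 103, 76 and 75, and 126 and 127. At exon 9 they differed most, at bases 79 and 122.

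**Figure D5:**
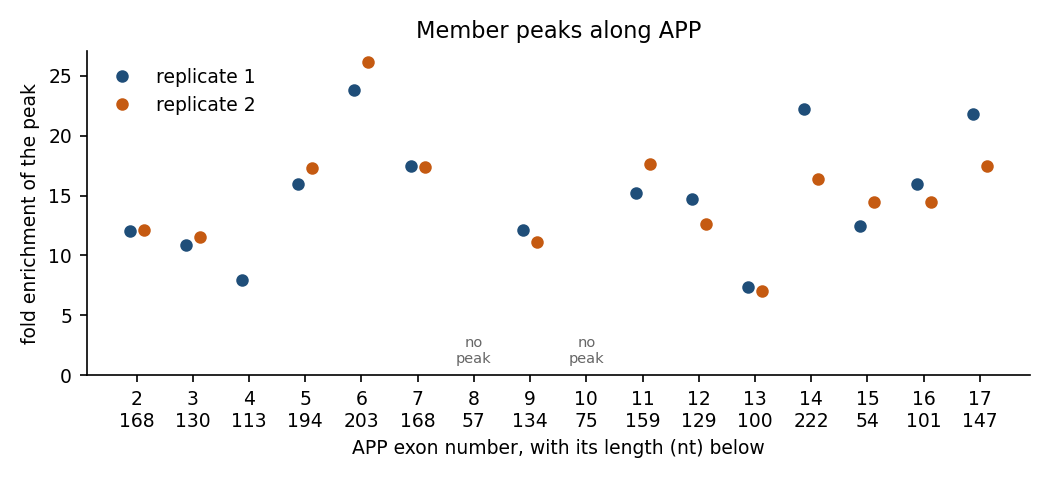
Fold enrichment of the member peak on each eligible exon of APP, with the exon's number and length in nt below the axis, for replicate 1 (blue) and replicate 2 (orange). Shared exons lie between 7.07 and 26.1, exon 4 has a point in replicate 1 only, and exons 8 and 10 have no peak.

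The next exons by rank of fold enrichment lay in genes of varied function. Exon 3 of CEACAM8, which encodes a cell adhesion molecule of granulocytes, had fold enrichments of 19.0 and 20.8, but the summit sequence occurs 5 and 2 times in hg38, so the gene of origin is uncertain. Exon 11 of FAM120A, an RNA-binding scaffold protein, had 17.4 and 19.2. Exon 6 of ZNF704, a zinc finger protein, had 17.8 and 18.4. Exon 12 of ANKS6, an ankyrin-repeat protein of the primary cilium, had 16.9 and 18.6.

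Exon 4 of MAP7, a microtubule-binding protein that recruits kinesin, had fold enrichments of 16.9 and 17.9. Exon 7 of CLINT1, a clathrin adaptor of the epsin family, had 17.6 and 17.8. Exon 4 of TOX3, an HMG-box protein, had 16.7 and 19.1. Exon 12 of ABLIM1, an actin-binding LIM protein, had 16.5 and 19.9, and its peaks ended at bases 116 and 123 of 130. In each of these 8 exons the pileup lay between 39 and 76 reads in both replicates.

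Several large genes carried member peaks on many exons. After APP, PRKDC, the catalytic subunit of the DNA-dependent protein kinase, had 13 shared exons of 84 eligible ones, with 24 members in replicate 1 and 14 in replicate 2. EIF4G3, a scaffold of translation initiation, had 12 of 30. HUWE1 and MYCBP2, both giant ubiquitin ligases, had 10 of 76 and 10 of 80. Thus the share of eligible exons was 81.2% in APP, 40% in EIF4G3, and from 12.5% to 15.5% in the others. On plus-strand genes, which were covered less, FAM120A had 9 of 16. Of the 1462 genes with a shared exon, 499 had 2 or more and 55 had 5 or more, and 259 pairs of shared exons were neighbours in the canonical transcript. Whether the number of eligible exons per gene accounts for these counts was not tested.

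In EIF4G3 the values were lower and varied between replicates. Exon 9 had fold enrichments of 16.2 and 15.2, exon 13 had 12.7 and 20.04, and exon 28 had 12.9 and 12.3, while the other shared exons lay between 6.90 and 12.6. The 2 shortest eligible exons, exon 7 of 33 nt and exon 8 of 21 nt, had no peak. In FAM120A the exons that were not shared included exon 13, which at 210 nt is longer than most shared exons, and exon 10 of 175 nt. Its strongest exons were exon 11 and exon 9, the latter with fold enrichments of 14.2 and 14.5 and downstream edges at bases 183 and 181 of 228.

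Genes of the cell cycle that the study followed by qPCR were looked up whatever their values. These 8 genes had 0 member peaks on 67 eligible exons. CDC25A, a phosphatase that activates cyclin-dependent kinases, has 13 eligible exons and had 0 members in either replicate. The study places the IGF2BP3 binding and m6A peaks of CDC25A in its 3' untranslated region. Peaks there are outside the member rule, so the 0 does not bear on them. CCNE2, CDC6, CDK4, CHEK2, E2F1, E2F3 and WEE1, with between 5 and 12 eligible exons each, also had 0 members. MYC and CCND1, which the study mentions as targets known from other work, were looked up too. MYC has 0 eligible exons. CCND1, which encodes cyclin D1, had a member on exon 2 in both replicates, with fold enrichments of 5.55 and 4.37 and pileups of 34 and 32 reads. These peaks ended at bases 87 and 177 of 216, so their edges did not coincide. Together these 10 genes had 1 shared exon of 70 eligible ones (1.43%), close to the 1.58% of all eligible exons, and 1 of the 9 genes with an eligible exon had a shared exon, against 8.95% of all genes. Their count is thus near the background, and expression was not measured here.

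Gene lists by function were compared through genes that have a peak of any kind in both replicates, of which 26.7% had a shared short coding exon. The share was 15 of 25 among large actin- and microtubule-associated proteins, with exon 4 of SPTBN1 (spectrin; fold enrichments of 12.3 and 14.1) and exon 10 of MYO5B (a myosin of recycling endosomes; 11.9 and 14.7) as examples. It was 14 of 25 among E1 enzymes and large ubiquitin ligases, where exon 45 of UBR1 had 11.2 and 15.5. Integrins and laminins had 7 of 11, with exon 3 of ITGB5 at 10.8 and 14.8. The median gene of these 3 lists has 39, 23 and 25 eligible exons, compared with 7 among all genes. Whether the number of exons accounts for these shares was not tested.

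Per exon the order was another. Translation initiation and elongation factors, with a median of 9 eligible exons per gene, had 33 of 429 eligible exons shared (7.69%), 12 of them in EIF4G3, and aminoacyl-tRNA synthetases had 17 of 344 (4.94%), 9 of them in IARS1. Vesicle coat proteins had 20 of 482 (4.15%), 6 of them in SEC24D, and receptor tyrosine kinases 15 of 367 (4.09%), with exon 20 of IGF1R at fold enrichments of 10.99 and 14.3. Large actin- and microtubule-associated proteins had 3.86% and E1 enzymes and ligases 3.51%. Glycolytic enzymes had 6 of 176 (3.41%), but 5 of these exons were in PKM, and the other genes had 1 of 168 (0.595%), below all eligible exons. Nuclear transport receptors had 2.95%, integrins and laminins 2.65%, and spliceosome proteins 2.25%. TRiC chaperonin subunits had 2 of 92 (2.17%), both in CCT3. Without EIF4G3 the translation factors had 5.26%, and without IARS1 the synthetases had 2.56%. Cohesin, condensin and kinetochore proteins had 0.988%, DNA replication proteins 0.855% and proteasome subunits 0.763%, below the 1.58% of all eligible exons.

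Several of these lists are uneven in strand, which was not adjusted for, and expression was not measured. Exon length was not adjusted for either. Minus-strand genes made up 75% of the aminoacyl-tRNA synthetases and 34.4% of the proteasome subunits. Spliceosome genes with a peak in both replicates had a shared exon in 10 of 20 cases, led by exon 2 of DDX23, a helicase of the U5 particle, at fold enrichments of 15.1 and 17.2. Vesicle coat genes did so in 10 of 23 cases, led by exon 24 of SEC31A, which builds the outer COPII coat, at 17.6 and 15.8. In contrast, proteasome genes had 2 of 13, glycolytic genes 2 of 11 and TRiC genes 1 of 5, below the 26.7% of all such genes. The remaining lists were above it. Translation factors had 14 of 30, synthetases 7 of 16, receptor tyrosine kinases 7 of 14 and nuclear transport receptors 7 of 17. Cohesin, condensin and kinetochore proteins had 5 of 11 and DNA replication proteins 3 of 9, although both were below all eligible exons when counted per exon. The glycolytic example, exon 6 of PKM, combined a fold enrichment of only 7.18 and 7.35 with pileups of 113 and 77 reads, since fold is measured against the local background.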

How the data were processed

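IGF2BP3 LACE-seq peak lists of 2 replicates were analysed. Per the study's methods, the authors removed reads that matched pre-rRNA, aligned the rest to hg38 with Bowtie and called peaks with Piranha, whereas the submitters' processing notes name fastp, HISAT2 and MACS2, and the deposited layout is that of MACS. Bowtie places no read across a splice junction, and the part of this in the shares by exon length was not tested. Peaks were called per sample and have no strand, so each was given the strand of its gene. The deposited fold enrichment is a ratio over local background, and deposited p- and q-values are −log10 values. The score column that the authors deposited was not used. The whole-number pileup at the summit was recovered for all peaks from fold and p-value.

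The 46 and 36 peaks on unannotated scaffolds were left out of comparisons. Members and gene lists were chosen with earlier results of these data known. The genes named are the 10 with the highest fold rank in both replicates, the 5 with most shared exons, the cell-cycle genes of the study, and up to 3 per gene list, leaving out items that are not reported here, with a few singled out afterwards (FAM120A by exon, the genes with identical edges). Overlap was counted from 1 bp. Shares were compared by Fisher's exact test (scipy 1.17.1), adjusted by Benjamini-Hochberg over 4 tests, and called when the adjusted p was below 0.05 for each replicate with the same sign. Wilson intervals (95%) cover counting error only. The member rule and the test were tested on simulated data. Alternatives changed the exon limit, overlap, width, q-value, repeats and comparison peaks; strand and pileup classes were added after seeing the data. Coordinates are 1-based, and no sequence from chromosome 8 is shown.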

Additional observations from a re-analysis of the deposited data

How the results depend on the processing

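No paired analysis was possible because there is a single group. Of 68 values under 15 alternatives, 45 kept their side of the threshold (tests), stayed within 1.5 times the main value (counts) or within its spread (other values). Means of the 2 replicates are given here. Recurrence against other peaks (-11.2 points) was -0.232 with peaks of at most 400 bp and -1.62 with a reciprocal overlap of 50%, where the replicates had opposite signs, and 1.89 with summits within 50 bp. The top quartile of fold (2.75 points, not called) was called at 6.40 when at least 50% of the exon was covered, at 8.22 with peaks of at most 400 bp and at 9.20 for pileups of 21 to 40 reads, and was -7.44 by the q-value. The share of summits upstream (74.6%, SD 0.063) was 78.7% for exons of up to 200 nt, 71.9% with 50% of the exon covered, 74.8% with no other exon cluster, 74.7% at a −log10 q of at least 5, 75.5% up to 400 bp, 74.8% for single-copy summits, 83.6% by the midpoint, 78.0% on plus-strand and 73.2% on minus-strand genes. Median exon length (174 nt) was 152 nt for exons of up to 200 nt and 168 nt for peaks up to 400 bp, and the GGAC share (53.6%) was 47.2% and 51.5% there and 58.3% on plus-strand genes. Plus-strand genes held 1413 members and 590 shared exons. Strand and pileup alternatives were chosen after seeing the data.

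Leaving out each replicate gave 4540 to 5155 members, a recurrence difference of -14.9 to -7.48 points, 74.5% to 74.6% of summits upstream, and a top-quartile difference of -0.179 to 5.68 points, past the threshold without replicate 2 only. The causes were not tested. Members with a pileup of up to 10 reads, 652 and 648 in number, were found again in 20.9% and 39.97% of cases, and those with 11 to 20 reads in 39.6% and 50.9%. Without expression values, an exon without a peak cannot be told apart from an exon of a gene that is not expressed.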
